A study of Homo sapiens with 12 samples.

Results

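Metallothioneins were described on the 12 arrays of HK-2 cells, as every probe set annotated to exactly 1 of the 7 genes MT2A, MT1E, MT1F, MT1G, MT1H, MT1M and MT1X. The 7 genes had 11 probe sets among the 54675 on the array. No probe set was annotated to one of these genes together with another gene. HK-2 is an immortalized line of human proximal tubule epithelium, and the arrays fall into 4 groups of 3. The groups were cells given CsA for 48 h, vehicle controls at 48 h, cells given CsA for 12 h, and vehicle controls at 12 h. CsA is read here as cyclosporin A, an immunosuppressant that binds cyclophilins and inhibits calcineurin. All groups grew in a medium that holds hydrocortisone, epidermal growth factor, insulin, transferrin and selenite, and were exposed when nearly confluent. Neither the dose of CsA nor the vehicle is named in the labels used here. The labels call the replicates biological without saying what separates them, so p-values measure the spread between these samples only. In bulk RNA, fewer expressing cells and less RNA per cell cannot be told apart.

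Metallothioneins are small, cysteine-rich proteins whose thiolate clusters hold zinc, copper and cadmium. Zinc-loaded MTF1, a zinc finger transcription factor, activates their genes through metal response elements in the promoter, and glucocorticoids are known inducers of MT2A. In kidney, the proximal tubule takes up filtered cadmium bound to metallothionein, and the protein is known there as a buffer of metals and oxidants. The genes of the family lie side by side on chromosome 16 and share much of their sequence. MT3 is known mainly from brain and MT4 from stratified epithelium, and MT1L is a transcribed pseudogene of the cluster.

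The promoters of MT2A, MT1H and MT1X are shown because they carry the metal response elements through which zinc acts on the family. RefSeq windows (GRCh38.p14, gene strand +) matched 3 of the 7 genes, and MT1E, MT1F, MT1G and MT1M had no entry. Each sequence is the 250 bases before the gene's start, 5′ to 3′, and capitals mark the core of a metal response element, TGCACNC or TGCGCNC, on either strand. The MT2A window is chr16:56608334-56608583, that of MT1H is chr16:56669564-56669813 and that of MT1X is chr16:56682220-56682469.
MT2A: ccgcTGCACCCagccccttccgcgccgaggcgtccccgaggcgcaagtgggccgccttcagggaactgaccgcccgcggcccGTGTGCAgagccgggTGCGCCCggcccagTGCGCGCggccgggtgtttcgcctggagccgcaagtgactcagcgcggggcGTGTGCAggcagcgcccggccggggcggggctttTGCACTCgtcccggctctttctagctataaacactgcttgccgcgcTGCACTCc
MT1H: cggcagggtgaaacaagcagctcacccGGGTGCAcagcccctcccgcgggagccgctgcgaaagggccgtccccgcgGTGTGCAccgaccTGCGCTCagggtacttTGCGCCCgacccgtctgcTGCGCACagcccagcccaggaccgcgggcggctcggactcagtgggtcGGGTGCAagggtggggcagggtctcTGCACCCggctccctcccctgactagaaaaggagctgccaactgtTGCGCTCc
MT1X: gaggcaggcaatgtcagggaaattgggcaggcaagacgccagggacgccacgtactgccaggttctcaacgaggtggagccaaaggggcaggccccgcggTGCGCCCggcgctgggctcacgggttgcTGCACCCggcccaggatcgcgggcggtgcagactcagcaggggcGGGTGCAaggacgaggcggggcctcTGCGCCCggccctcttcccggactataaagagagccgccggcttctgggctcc

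The core occurred 7 times in the MT2A window, 8 times in the MT1H window and 4 times in the MT1X window. Of 35116 RefSeq promoter windows of the same length, 24.8% held at least 1 core, 0.37% at least 4 and 0.0313% at least 7. The antioxidant element core TGACNNNGC occurred once in MT2A and once in MT1X and not in MT1H, against 10.9% of all windows. A TATA box, TATAAA, was found in the MT2A and MT1X windows and not in that of MT1H, against 10.7% of all windows. No base was shared between a metal response element core and another motif in these windows, and a match is a description of letters, not of binding.

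**Figure D1:**
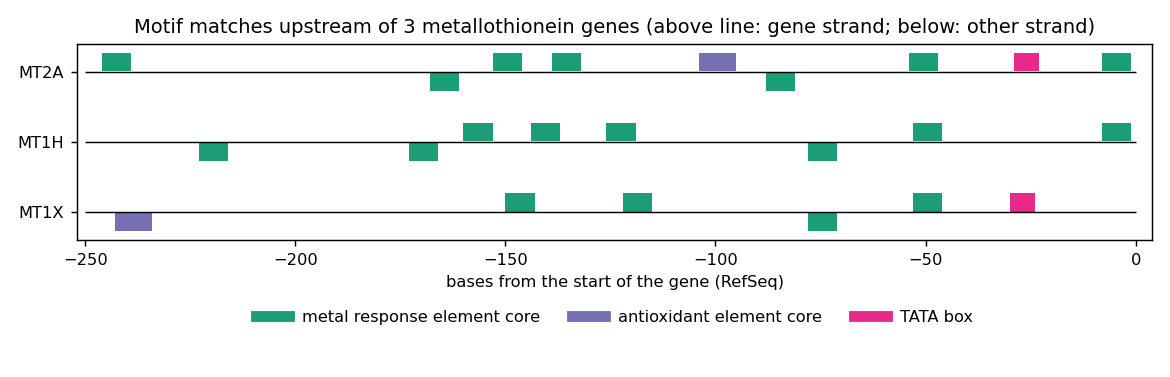
Positions of motif matches in the 250 bases before the start of MT2A, MT1H and MT1X (x axis, bases from the start; bars above the line lie on the gene's strand, bars below on the other). The 7, 8 and 4 metal response element cores are spread over the windows, and one lies about 50 bases before the start in each.

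A log2 value above 4 on at least 3 arrays was asked of a probe set before testing, and 9 of the 11 probe sets passed, from 6 of the 7 genes. All 9 lay far above that limit on every array, between 10.83 and 14.31. The other 2 lay near the floor of the scale on every array. MT1G 210472_at ranged from 2.40 to 2.42, while the other MT1G probe set was among the bright ones, and MT1M 217546_at, the only one for MT1M, ranged from 2.51 to 2.60. No level of MT1M can be given from these arrays beyond that limit. MT1E, MT1F and MT1X each had 2 bright probe sets. All 9 bright probe sets have names that end in x_at, which marks probes that can share sequence with related genes. How much of each signal comes from its own gene and how much from relatives is unknown. The 2 probe sets near the floor, MT1G 210472_at and MT1M 217546_at, are the only ones without that ending. The sequence accession behind MT1X 204326_x_at belongs to MT1L in RefSeq, while those behind MT1X 208581_x_at, MT2A, MT1G 204745_x_at and MT1H belong to the gene annotated. Those behind both MT1E and both MT1F probe sets were not matched to a RefSeq gene.

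MT2A, the isoform that most human tissues express, had log2 values of 13.57, 13.48 and 13.83 with CsA at 48 h and of 13.48, 13.50 and 13.57 in controls at 48 h. At 12 h its values were 13.80, 14.31 and 14.29 with CsA and 13.94, 14.19 and 14.21 in controls. CsA and control arrays overlapped at both times, and all control arrays at 48 h lay below all control arrays at 12 h.

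MT1X, an isoform induced by metals, was read by 208581_x_at at 12.66, 12.63 and 12.93 with CsA at 48 h and at 12.57, 12.75 and 12.74 in controls at 48 h. The 12 h values of this probe set were 13.02, 13.45 and 13.53 with CsA and 13.12, 13.46 and 13.40 in controls. Its second probe set, 204326_x_at, read 11.57, 11.16 and 12.00 with CsA at 48 h and 11.50, 11.65 and 11.48 in controls at 48 h. The 12 h values of 204326_x_at were 12.02, 12.42 and 12.41 with CsA and 12.17, 12.56 and 12.46 in controls. Both probe sets of MT1X were below their 12 h values on every 48 h array, with CsA and without it, and replicate 3 was the highest of the CsA arrays at 48 h in both.

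MT1E, another member of the cluster's first subfamily, was read by 212859_x_at at 13.33, 13.27 and 13.12 with CsA at 48 h and at 13.27, 13.51 and 13.50 in controls at 48 h. The 12 h values of that probe set were 13.45, 13.92 and 14.08 with CsA and 13.52, 13.93 and 13.91 in controls. The second probe set, 216336_x_at, ran alongside it, at 12.54, 12.41 and 12.31 with CsA and 12.39, 12.57 and 12.60 in controls at 48 h, and at 12.62, 13.16 and 13.17 with CsA and 12.71, 13.16 and 13.10 in controls at 12 h. The 48 h arrays of MT1E lay below the 12 h arrays for both probe sets under either treatment, while CsA and control overlapped at each time.

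MT1G, whose 204745_x_at was the bright probe set, had values of 11.04, 10.84 and 11.09 with CsA at 48 h and of 10.83, 10.94 and 10.96 in controls at 48 h. At 12 h the values of this MT1G probe set were 11.12, 11.59 and 11.65 with CsA and 11.26, 11.58 and 11.54 in controls. The MT1G probe set without the x_at ending, 210472_at, stayed near the floor, so the level of MT1G itself is uncertain. MT1H 206461_x_at read 11.41, 11.46 and 11.43 with CsA at 48 h and 11.35, 11.49 and 11.49 in controls at 48 h, and at 12 h it read 11.44, 12.04 and 12.04 with CsA and 11.50, 11.95 and 11.91 in controls. In MT1H the CsA arrays of 48 h and 12 h overlapped, through replicate 1 at 12 h, whereas the controls of these times did not.

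MT1F, a further member of the cluster, had 2 bright probe sets that differed from each other in pattern. Its 217165_x_at read 12.16, 12.08 and 11.94 with CsA at 48 h and 12.13, 12.49 and 12.35 in controls at 48 h, and at 12 h it read 12.20, 12.73 and 12.77 with CsA and 12.34, 12.78 and 12.65 in controls. Its 213629_x_at read 11.36, 11.43 and 11.23 with CsA at 48 h and 11.75, 12.66 and 11.85 in controls at 48 h, and at 12 h it read 11.37, 12.09 and 11.62 with CsA and 11.45, 12.11 and 11.64 in controls. In 213629_x_at all CsA arrays at 48 h lay below all controls at 48 h, and the control replicate 2 stood highest of all 12 arrays. In 217165_x_at CsA and control overlapped at 48 h.

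**Figure D2:**
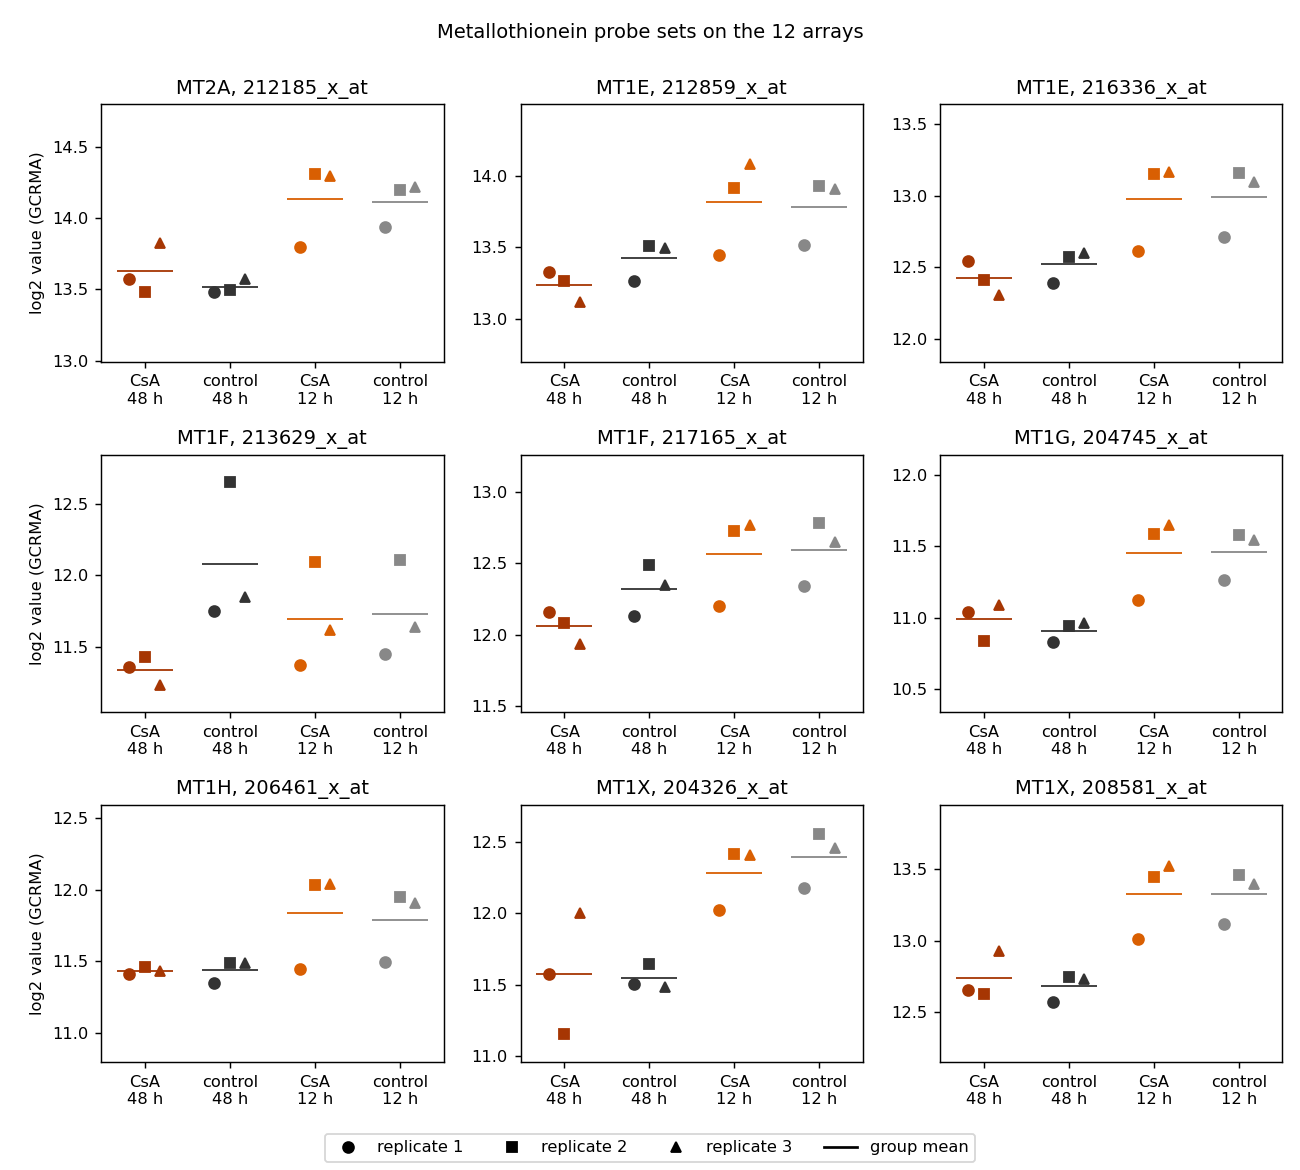
Log2 values (y axis) of the 9 bright metallothionein probe sets on every array, by group (x axis), with a symbol for each replicate number and a line at the group mean; every panel spans the same range of log2 units. Replicate 1 lies lowest in both 12 h groups in every panel, and MT1F 213629_x_at alone has its 48 h controls above the CsA arrays without overlap.

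Replicates of a number moved together within the family at 12 h. Replicate 1 was the lowest of its group in 9 of 9 probe sets with CsA at 12 h and in 9 of 9 in controls at 12 h, and 17.4% of all 20625 probe sets tested had replicate 1 lowest in both. The mean over the 9 probe sets was 12.34, 12.85 and 12.84 with CsA at 12 h and 12.45, 12.86 and 12.76 in controls at 12 h. Replicate 1 was also lowest in 8 of 9 probe sets in controls at 48 h, against 36.7% of all, but in 1 of 9 with CsA at 48 h, against 33.6%. In these means replicate 1 lay further from the other replicates of its group than CsA lay from control within a replicate number. The probe sets share sequence and do not count as independent.

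CsA for 12 h left no metallothionein probe set past the threshold. Limma on the 6 arrays of 12 h with Benjamini-Hochberg adjustment over 20625 probe sets called 0 of 9, and called 0.00% of all probe sets. At an unadjusted p under 0.05 it gave 0 of 9 metallothionein probe sets, against 3.68% higher (760) and 2.82% lower (581) of all. The log2 differences, CsA minus control, ran from -0.11 for MT1X 204326_x_at to 0.05 for MT1H, with a median of -0.01 and with 4 above and 5 below 0. The median over all probe sets was -0.0029. The 95% intervals of the 9 together ran from -0.62 to 0.55, or from 0.651-fold to 1.47-fold, in this fit without pairing. The replicate numbers pair the 12 h arrays, and with them as a block the SEs were 0.0530 to 0.0739, against 0.149 to 0.239 without it, and again none passed. Within replicate numbers, all 27 differences lay between -0.15 and 0.17. CsA and control overlapped in all 9 probe sets, whereas of all probe sets 6.20% were above and 5.78% below without overlap.

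CsA for 48 h likewise left no metallothionein probe set past the threshold in limma on the 6 arrays of 48 h. It called 0 of 9, and 8 of all 20625 probe sets, which is 0.0388% and all of them lower with CsA. The differences ran from -0.74 to 0.11, with a median of -0.01, as over all probe sets. At an unadjusted p under 0.05 there was 1 of the 9, against 7.63% higher (1574) and 11.9% lower (2451) of all. It was MT1F 213629_x_at, with a log2 difference of -0.74 (SE 0.25, 95% interval -1.36 to -0.13, limma adjusted p = 0.196), or 0.598-fold. Its groups did not overlap, as was the case in 15.0% of all probe sets in that direction. Without the high control replicate 2 the difference was -0.46 and its adjusted p = 0.338.

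The other probe sets were closer to 0 at 48 h. The second MT1F probe set, 217165_x_at, differed by -0.26 (SE 0.14, adjusted p = 0.351), MT1E 212859_x_at by -0.19 (SE 0.12, adjusted p = 0.454) and MT1E 216336_x_at by -0.10 (SE 0.12, adjusted p = 0.698). MT2A differed by 0.11 (SE 0.13, adjusted p = 0.676), MT1G by 0.08 (SE 0.12, adjusted p = 0.758) and MT1H by -0.01 (SE 0.10, adjusted p = 0.984). For MT1X, 208581_x_at differed by 0.05 (SE 0.13) and 204326_x_at by 0.03 (SE 0.22), with adjusted p = 0.859 and 0.957. The 95% intervals of the 8 probe sets other than MT1F 213629_x_at lay between -0.59 and 0.57. On replicate 3 of CsA at 48 h the hybridization controls had a median of 6.95, and on the remaining arrays it ran from 9.60 to 10.95. Without that replicate MT1X 208581_x_at differed by -0.04, MT1X 204326_x_at by -0.18 and MT2A by 0.01. The poly-A controls were low on replicate 1 at 48 h, with medians of 5.04 for CsA and 4.32 for its control, where every other array had 8.38 to 10.18. Without both of them MT1F 213629_x_at differed by -0.92 (adjusted p = 0.596). The part of these signals in the results was not tested beyond these values.

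**Figure D3:**
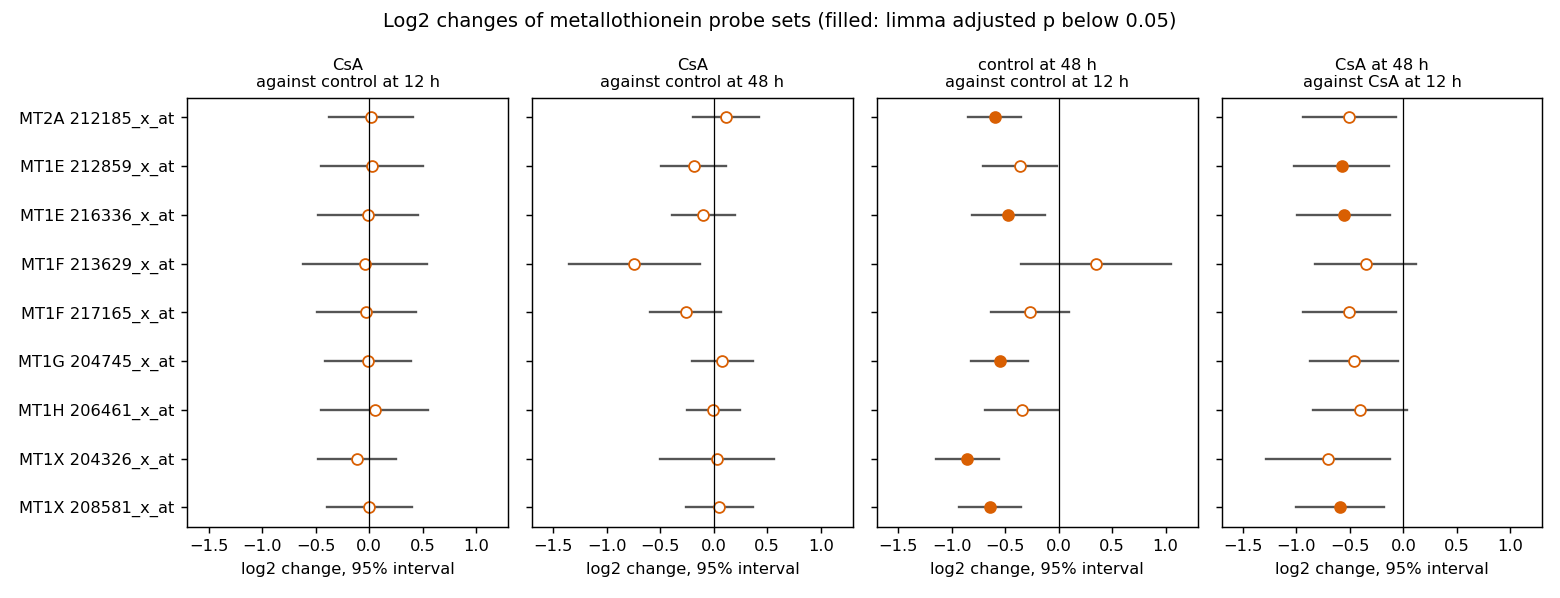
Log2 changes of the 9 probe sets (points) with 95% intervals (lines) for CsA against control at each time and for 48 h against 12 h under each treatment; filled points have a limma adjusted p below 0.05. All points of the CsA comparisons are open, 5 points are filled in the control time comparison and 3 in that with CsA.

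In control culture, metallothionein probe sets annotated to 4 genes were lower at 48 h than at 12 h. These probe sets share sequence, so they do not show that 4 genes fell separately. Limma called 5 of 9 probe sets lower and 0 higher, where 18.8% of all probe sets were called lower, 20.4% higher and 39.3% in all. The largest change among the 9 was that of MT1X 204326_x_at, whose mean was 11.54 ± 0.09 at 48 h and 12.40 ± 0.20 at 12 h (SD, n = 3 arrays each). It fell by 0.85 on the log2 scale (SE 0.12, limma adjusted p = 0.00286), to 0.554-fold. MT1X 208581_x_at fell by 0.64 (SE 0.12, limma adjusted p = 0.00727) and MT2A fell by 0.60 (SE 0.10, limma adjusted p = 0.00545). MT2A averaged 13.52 ± 0.05 at 48 h and 14.11 ± 0.15 at 12 h, a change to 0.661-fold. MT1G fell by 0.55 (SE 0.11, limma adjusted p = 0.00995). MT1E 216336_x_at fell by 0.47 (SE 0.14, limma adjusted p = 0.0417), and that call did not survive 5 of 6 fits made without a single array, the exception being that without replicate 1 of the 12 h controls (adjusted p = 0.0149).

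The calls of MT1X, MT2A and MT1G, by contrast, held in all 6 of those fits. MT1E 212859_x_at changed by -0.36 (SE 0.14, adjusted p = 0.0919), MT1H by -0.35 (SE 0.14, adjusted p = 0.0982) and MT1F 217165_x_at by -0.27 (SE 0.15, adjusted p = 0.204), and these did not pass. With the replicate number as a block, MT1E 212859_x_at passed as well (limma adjusted p = 0.0345), as it did without replicate 1 of the 12 h controls (adjusted p = 0.0317). MT1F 213629_x_at was the one with a positive value, 0.35 (SE 0.29, adjusted p = 0.372). The median of the 9 was -0.47, against 0.02 over all probe sets. The groups did not overlap in 7 of 9, all lower at 48 h, against 26.9% of all probe sets in that direction. Compared within replicate numbers, which pair these controls only weakly, 24 of 27 differences were below 0, and the other 3 were those of MT1F 213629_x_at. The probe sets share sequence, so the 27 do not count as independent. Of all probe sets, 48.3% had a change below 0 between the control means.

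With CsA the values of the same probe sets at 48 h against 12 h were all below 0, from -0.71 to -0.35 with a median of -0.51, against 0.02 over all probe sets. Limma called 3 of 9 lower and 0 higher, where 20.0% of all probe sets were called lower and 39.6% in all. MT1X 208581_x_at fell by 0.59 (SE 0.17, limma adjusted p = 0.0365), MT1E 212859_x_at fell by 0.58 (SE 0.18, limma adjusted p = 0.0473) and MT1E 216336_x_at fell by 0.56 (SE 0.18, limma adjusted p = 0.0493). MT1X 204326_x_at had the largest value of the 9, -0.71 (SE 0.24, adjusted p = 0.0592), and MT2A had -0.51 (SE 0.18, adjusted p = 0.0669). The remaining values were -0.50 for MT1F 217165_x_at, -0.46 for MT1G, -0.41 for MT1H and -0.35 for MT1F 213629_x_at, with adjusted p from 0.0667 to 0.198. The groups did not overlap in 6 of 9, all lower at 48 h, against 27.4% of all in that direction and 30.4% in the other.

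The number of calls changed when single arrays were left out, while the values of the 3 called probe sets stayed below 0. They ran from -0.75 to -0.49 for MT1X 208581_x_at, from -0.76 to -0.44 for MT1E 212859_x_at and from -0.74 to -0.46 for MT1E 216336_x_at. Without replicate 1 of CsA at 12 h 7 of 9 passed. Without replicate 2 or 3 of CsA at 12 h, or replicate 1 or 2 of CsA at 48 h, 0 of 9 passed. Without replicate 3 of CsA at 48 h the count was again 3, made up of both MT1X probe sets, with changes of -0.92 and -0.68, and MT2A, with -0.61.

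Whether the effect of CsA differed between 48 h and 12 h was tested as an interaction over all 12 arrays. Limma called 0 of 9, against 0.320% of all probe sets. At an unadjusted p under 0.05 it gave 0 of 9, against 5.92% higher (1220) and 9.55% lower (1970) of all. The values ran from -0.70 for MT1F 213629_x_at (SE 0.37, 95% interval -1.53 to 0.12, adjusted p = 0.397) to 0.15 for MT1X 204326_x_at (SE 0.28, adjusted p = 0.850). The calls in control culture that were absent with CsA are therefore not shown to differ between the treatments.

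The probe sets of one gene were set against each other on each array, since probe sets that share sequence can read relatives to different degrees. For MT1E, 212859_x_at minus 216336_x_at was nearly constant, 0.79, 0.85 and 0.81 with CsA and 0.88, 0.94 and 0.90 in controls at 48 h, and 0.83, 0.76 and 0.91 with CsA and 0.81, 0.77 and 0.81 in controls at 12 h. For MT1X, 204326_x_at minus 208581_x_at was -1.09, -1.48 and -0.93 with CsA and -1.07, -1.10 and -1.25 in controls at 48 h, and -0.99, -1.03 and -1.12 with CsA and -0.95, -0.91 and -0.94 in controls at 12 h. The MT1X distance was widest on replicate 2 of CsA at 48 h.

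For MT1F the distance was not constant. The difference, 213629_x_at minus 217165_x_at, was -0.80, -0.65 and -0.71 with CsA at 48 h and -0.38, 0.17 and -0.50 in controls at 48 h. At 12 h it was -0.83, -0.63 and -1.15 with CsA and -0.89, -0.67 and -1.01 in controls. The controls at 48 h were thus above all other arrays. The mean distance in CsA at 48 h minus that in controls at 48 h was -0.48, and that in controls at 48 h minus controls at 12 h was 0.62. An exact two-sided permutation test gave p = 0.1 for each, the smallest that 3 against 3 arrays allow, or 0.2 after Benjamini-Hochberg adjustment over the 12 tests of this kind. The same p came from 4 smaller differences, namely for MT1E -0.09 for CsA minus control at 48 h and 0.11 for controls at 48 h minus 12 h, and for MT1X -0.11 for CsA minus control at 12 h and -0.21 for controls at 48 h minus 12 h. The MT1F difference between CsA and control at 48 h was thus -0.74 by one probe set and -0.26 by the other, and neither passed.

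**Figure D4:**
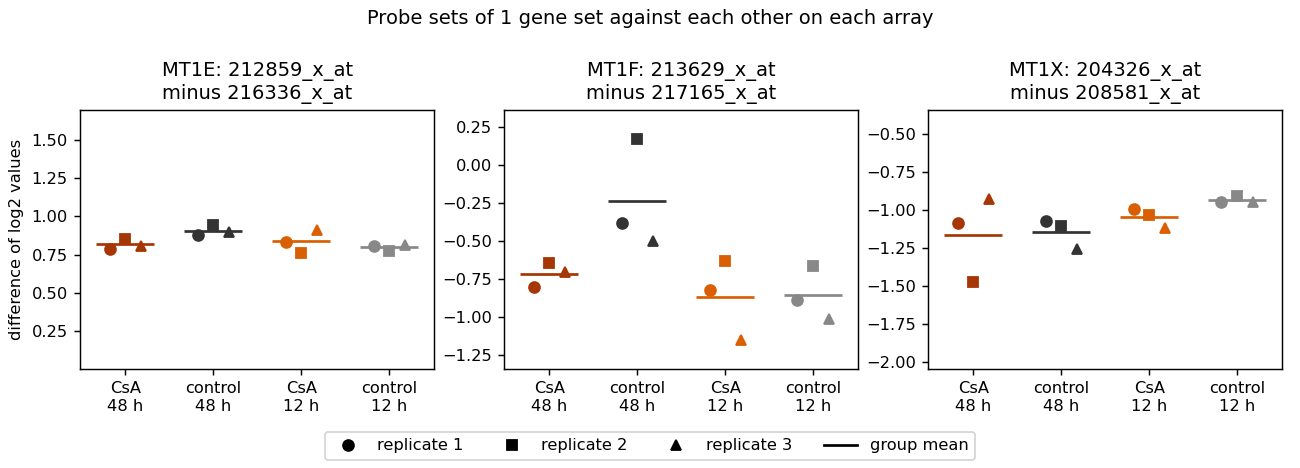
Difference of log2 values between the 2 probe sets of MT1E, MT1F and MT1X on each array (y axis), by group (x axis), with a symbol for each replicate number and a line at the group mean. The MT1E difference stays between 0.76 and 0.94, while that of MT1F is -0.24 on average in the 48 h controls and between -0.87 and -0.72 in the other groups.

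Across the 12 arrays the probe sets other than MT1F 213629_x_at ran together, with Pearson's r of levels between 0.724 and 0.987 in 28 pairs. The closest pair was MT2A with MT1X 208581_x_at, at 0.987. MT1F 213629_x_at had r between 0.043 and 0.581 with the other 8, the highest with the other MT1F probe set. After the group means were taken off, r was 0.389 to 0.977 in the 28 pairs and 0.330 to 0.746 in the 8. These points share arrays, the difference between times and the replicate numbers, and the probe sets share sequence, so the values are a description.

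The genes most like the family were ranked among 11148 others by r over the 12 arrays with the mean of the 9 probe sets, each taken from its own mean. The first 5 were CSRP1 at 0.970, MT1HL1 at 0.957, RCCD1 at 0.952, RAB11A at 0.945 and EPB41L3 at 0.940. MT1HL1 is another metallothionein gene, and its probe set is also of the x_at kind. CSRP1 encodes a zinc-binding LIM domain protein and RAB11A a small GTPase of recycling endosomes. CSRP1 changed by -0.18 between the controls of 48 h and 12 h and did not pass (adjusted p = 0.133), RCCD1 fell by 0.46 (adjusted p = 0.0175) and EPB41L3 fell by 1.496 (adjusted p = 0.00500), all by limma. By deviations from the group means, the first 5 were NAB2, ERCC1, TMEM39A, MAN2B2 and ADNP, with r from 0.938 to 0.981. These are genes whose arrays within a group are ordered as the metallothioneins are, and the ranking shares its arrays with the family.

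Of 12 other metallothionein genes and pseudogenes of the family, 3 had a probe set of their own. MT1HL1 was bright, with values of 13.10, 13.00 and 13.07 with CsA at 48 h, 13.07, 13.19 and 13.13 in controls at 48 h, 13.16, 13.54 and 13.82 with CsA at 12 h and 13.18, 13.62 and 13.60 in controls at 12 h. It changed by -0.34 in controls (adjusted p = 0.10) and by -0.45 with CsA (adjusted p = 0.0905), and did not pass. MT3 and MT4 lay between 2.21 and 2.92 on every array, near the floor.

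Zinc transport and sensing genes, which set the free zinc that MTF1 reads, had 19 of 25 members measured, each by its probe set with the highest mean. Limma called 0 of 19 for CsA at 12 h or at 48 h and for their difference. Of all probe sets it called 0.00%, 0.0388% and 0.320% there. With CsA at 48 h the importer SLC39A4 differed by 1.10 (adjusted p = 0.0781) and the importer SLC39A8 by -1.07 (adjusted p = 0.0800), and neither passed. In control culture, 7 of 19 rose and 1 fell at 48 h against 12 h, where the shares of all probe sets were 20.4% and 18.8%, and the median was 0.22. The importer SLC39A14 rose by 1.81 (SE 0.18, adjusted p = 0.000777) and SLC39A11, another zinc transporter, by 1.66 (SE 0.11, adjusted p = 0.000238). SLC30A7, which loads zinc into the Golgi, rose by 0.82 (SE 0.09, adjusted p = 0.00122) and SLC30A4, a vesicular zinc transporter, by 0.74 (SE 0.10, adjusted p = 0.00224). The 1 that fell, named after its value was seen, was the importer SLC39A10, which fell by 1.20 (adjusted p = 0.00373).

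With CsA 7 of 19 rose and 2 fell at 48 h against 12 h, where 19.6% and 20.0% of all probe sets did. SLC39A14 rose by 1.70, SLC39A11 by 1.78 and the importer SLC39A4 by 1.28, and the importer SLC39A8 fell by 1.47, with limma adjusted p from 0.000686 to 0.00211. MTF1 itself passed in no comparison, with values of -0.07 for CsA at 12 h, 0.17 for CsA at 48 h, -0.28 between the controls and -0.04 between the CsA groups. SLC30A1, the zinc exporter that is a known MTF1 target, rose by 0.38 between the controls (SE 0.11, adjusted p = 0.0339) and by 0.35 between the CsA groups (SE 0.10, adjusted p = 0.0312). MT1X 208581_x_at was called lower in both, and MT1X 204326_x_at between the controls only. A link between SLC30A1 and MT1X was not tested. With CsA against control SLC30A1 differed by -0.10 at 12 h and by -0.13 at 48 h, and neither passed.

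**Figure D5:**
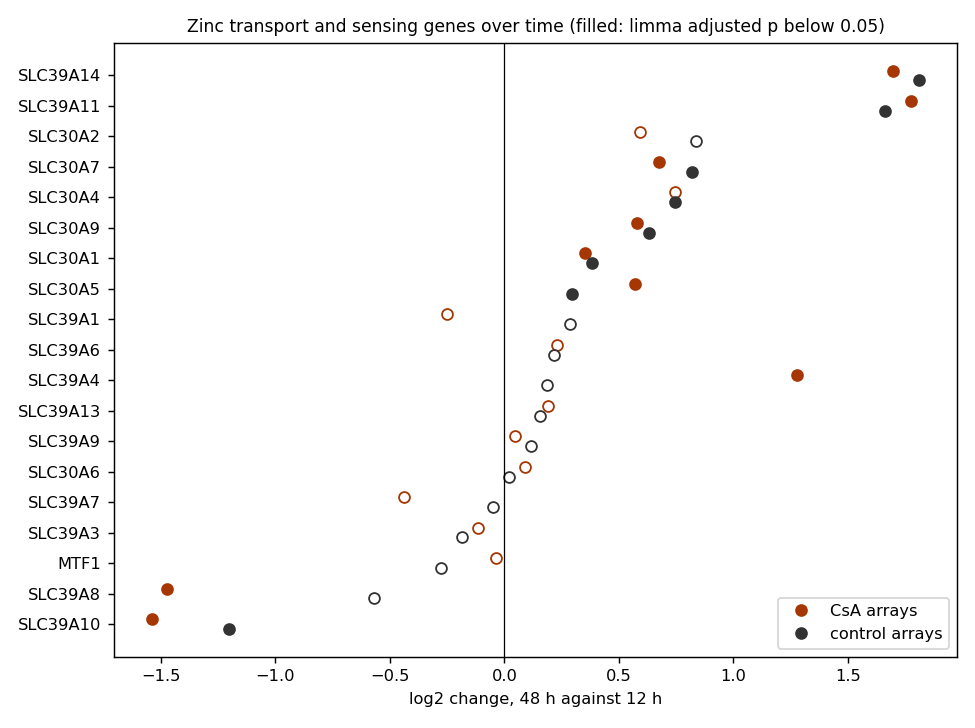
Log2 change at 48 h against 12 h (x axis) of the 19 zinc transport and sensing genes measured, in CsA arrays (upper point of each row) and control arrays (lower point); filled points have a limma adjusted p below 0.05. SLC39A14 and SLC39A11 lie furthest to the right, SLC39A10 and SLC39A8 furthest to the left, and SLC30A1 near 0.4 in both.

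Other genes tied to metallothionein biology were counted in the same fits. Limma called none of them for CsA against control at 12 h or 48 h or for the difference of these effects. Of all probe sets it called 0.00%, 0.0388% and 0.320% in these 3 comparisons. Of 13 copper and divalent metal genes measured, 3 rose and 5 fell between the controls, and 2 rose and 4 fell between the CsA groups. Of all probe sets 20.4% rose and 18.8% fell between the controls, and 19.6% rose and 20.0% fell between the CsA groups. The copper chaperone ATOX1 fell by 0.60 in controls and fell by 0.83 with CsA. The copper-zinc enzyme SOD1 fell by 0.43 in controls and fell by 0.59 with CsA. The copper pump ATP7A rose by 0.92 in controls and the divalent metal importer SLC11A2 by 0.58. With CsA they changed by 1.20 (adjusted p = 0.104) and 0.28 (adjusted p = 0.108), and neither passed. CCS, the copper chaperone of SOD1, rose by 0.37 in controls and by 0.52 with CsA. SCO2 rose by 0.39 with CsA and changed by 0.09 in controls (adjusted p = 0.483).

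Of 13 oxidant and heavy metal response genes measured, 2 rose and 6 fell between the controls, and 1 rose and 4 fell between the CsA groups, beside the same shares of all probe sets (20.4% and 18.8%, then 19.6% and 20.0%). The cystine importer SLC7A11 rose by 3.94 in controls and by 2.62 with CsA. GCLM, the modifier subunit of glutathione synthesis, fell by 2.06 in controls and fell by 2.15 with CsA. The co-chaperone BAG3 fell by 0.88 in controls and fell by 0.71 with CsA. HSPH1, a heat shock protein, fell by 0.80 in controls and changed by -0.26 with CsA (adjusted p = 0.102). NQO1, a quinone reductase, fell by 1.31 in controls and fell by 1.20 with CsA. The list did not move one way.

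Glucocorticoid receptor targets were counted because the medium holds hydrocortisone, and 11 of 17 were measured. Between the controls 1 rose and 1 fell, where 20.4% and 18.8% of all probe sets did. TSC22D3, a classic glucocorticoid target, rose by 0.78 (SE 0.17, adjusted p = 0.0125), and GLUL, glutamine synthetase, fell by 0.41. Between the CsA groups 0 rose and 4 fell, where 19.6% and 20.0% of all probe sets did, and 5 of the 11 values were above 0. CEBPD, a transcription factor, fell by 0.98, FKBP5 fell by 0.93, the kinase SGK1 fell by 0.86 and GLUL fell by 0.54, with limma adjusted p from 0.00393 to 0.0397. FKBP5, an immunophilin induced by glucocorticoids, changed by -0.37 between the controls (adjusted p = 0.0821) and differed by -0.59 between CsA and control at 48 h (adjusted p = 0.184). TSC22D3 changed by 0.71 between the CsA groups (adjusted p = 0.0929) and differed by 0.11 between CsA and control at 48 h (adjusted p = 0.883). The 12 h values for CsA against control were -0.03 for FKBP5 and 0.18 for TSC22D3.

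Genes beside the metallothionein cluster on chromosome 16 were measured for 6 of 10. Limma called 2 higher and 2 lower between the controls, where 20.4% and 18.8% of all probe sets were. Between the CsA groups it called 1 higher and 2 lower, where 19.6% and 20.0% of all were. Between the controls NUP93 fell by 0.76 and NUDT21 fell by 0.57, while HERPUD1 rose by 3.06 and BBS2 by 0.38. With CsA NUDT21 fell by 0.82 and NUP93 fell by 0.57 at 48 h against 12 h, and HERPUD1 rose by 2.27. GNAO1 and OGFOD1 were called in neither, and BBS2 not with CsA. The part of the position on the chromosome in the metallothionein values was not tested.

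The arrays were checked for cell type. The epithelial keratins KRT8 and KRT18 had group means between 14.02 and 15.44, and of the proximal tubule markers on the array 5 of 10 passed the filter, among them CDH6, PAX8 and PDZK1, while LRP2, CUBN, ANPEP and AQP1 did not. Of the 5 epithelial markers 4 passed, and CDH1 did not. No endothelial marker (0 of 4) and no leukocyte marker (0 of 4) passed. Of 3 podocyte markers on the array 1 passed, PODXL, with group means between 10.16 and 10.68. Of 6 fibroblast and mesangial markers 4 passed, with COL1A1 at 9.06 with CsA and 10.01 in controls at 48 h, and 9.76 with CsA and 9.86 in controls at 12 h. None of these 4 was called for CsA against control, where 0.00% of all probe sets were called at 12 h and 0.0388% at 48 h. Their median difference at 48 h was -0.91, against -0.01 over all probe sets. The 5 proximal tubule markers had a median difference of -1.02 there, and none was called, with -1.75 for SLC4A4, -1.16 for CDH6, -1.02 for PDZK1, -0.95 for CDH16 and 1.09 for PAX8. Between the CsA groups 4 of these 5 fell and PAX8 rose, where 20.0% of all probe sets fell and 19.6% rose. Between the controls CDH6 alone of the 5 was called, and fell, where 18.8% of all fell and 20.4% rose. The effect of CsA differed between 48 h and 12 h for CDH6 (-1.25, limma adjusted p = 0.0233) and PAX8 (0.99, limma adjusted p = 0.0402). That comparison called 0.320% of all probe sets. The part of these markers in the metallothionein values was not tested.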

How the data were processed

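Per the submitters' processing notes, the authors made the deposited values with GCRMA. The deposited log2 values are probe set summaries, whose version and settings were not stated in those notes. No further normalization was applied. The platform annotation gave 1 gene symbol for 41097 of 54675 probe sets, several for 1801 and none for 11777, and 41043 were matched to RefSeq by gene identifier. Probe sets with 1 symbol and a log2 value above 4 on at least 3 of 12 arrays were tested, without 6 array controls, which left 20625. No 2 arrays were identical in 66 pairs.

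Each comparison of 2 groups was fitted on its own 6 arrays, and the difference of the CsA effects on all 12, in limma 3.58.1 (R 4.3.3). P-values were two-sided, adjusted by Benjamini-Hochberg over all probe sets tested, and those below 0.05 were called. Every adjusted p printed for a gene is limma's. The fits were run on simulated data with noise drawn independently for each probe set and array. That check cannot speak to noise shared between probe sets or to pairing of replicates. The number of arrays limits the precision.

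The members and lists were chosen with earlier results of these data known. The text names every member probe set, up to 4 called genes of each list by smallest p in each comparison, MTF1, SLC30A1, TSC22D3 and FKBP5 always, and the 5 genes of most similar pattern by each of 2 measures. Other genes were named after their values were seen.

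Replicate numbers come from the labels. Arrays of the same number correlated, in deviations from group means, with r of 0.392 to 0.550 for 12 h CsA with its control and of 0.124 to 0.295 between 48 h and 12 h controls, all over the limit of 0.1. Between CsA and control at 48 h (-0.149 to 0.306) and between the CsA groups (-0.0738 to 0.190) not every pair was above it. For unlike numbers r ran from -0.184 to 0.0440 between the controls. At 48 h it reached 0.320, for replicate 3 of CsA with replicate 1 of the controls. Values this low are weak grounds for pairing the controls across times.

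Alternatives were a shared fit of 4 groups, the replicate number as a block, no filter or one at a log2 value of 6, trend and robust priors, array weights, median-centred arrays, the mean of a gene's probe sets, and fits without single arrays or without both 48 h replicate 1 arrays.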

Additional observations from a re-analysis of the deposited data

Results flagged for a closer look

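MT1F 213629_x_at was picked out because its change at 48 h against 12 h went opposite ways under the 2 treatments. With CsA it was -0.01, -0.66 and -0.39 in replicates 1, 2 and 3, and in controls it was 0.30, 0.55 and 0.21. The test of this difference as an interaction gave -0.70 on the log2 scale and did not pass (limma, Benjamini-Hochberg adjusted p = 0.397). Arrays of one replicate number correlated only weakly between the controls of 48 h and 12 h, with r of 0.124 to 0.295. Between the CsA groups r was -0.0738 to 0.190. The differences by number are therefore only a way to show the arrays. The second probe set of MT1F, 217165_x_at, had an interaction value of -0.24 (adjusted p = 0.687). Without control replicate 2 at 48 h the value of MT1F 213629_x_at was -0.42 (adjusted p = 0.643).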

How the results depend on the processing

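No metallothionein was called for CsA against control at 12 h, at 48 h or for their difference under any alternative run. These tested 9 probe sets, except for 11 without a filter and 6 genes with the mean of a gene's probe sets. Between the controls 4 of 11 were called without a filter, 4 of 6 genes with the gene mean, 4 to 6 of 9 under the other settings and 4 to 7 of 9 in fits that left out 1 array. For CsA at 48 h against 12 h the 3 calls were 7 in the shared fit, 1 with the replicate block, 0 without a filter, 6 with trend and robust priors, 6 with array weights and 0 without both 48 h replicate 1 arrays, and 0 to 7 in fits that left out 1 array. The cause was not tested. Each bright probe set lies far above the filter, which changes the number of probe sets adjusted over and also limma's moderated error. For MT1H with CsA against control at 48 h the SE was 0.102, against 0.0464 without a filter.

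Over all probe sets the number called for CsA at 12 h was 1 in the shared fit and 0 otherwise. At 48 h the 8 calls became 2620 in the shared fit, 0 with the replicate block, 1 without a filter, 82 with the filter at 6, 133 with trend and robust priors, 1998 with array weights, 3 with centred arrays, 88 with the mean of a gene's probe sets, 0 without both 48 h replicate 1 arrays and 0 to 23 in fits without 1 array. The 66 of the difference became 443 with the replicate block, 35 without a filter, 124 with the filter at 6, 154 with trend and robust priors, 1253 with array weights, 24 with centred arrays, 102 with the gene mean, 4 without both 48 h replicate 1 arrays and 0 to 482 in fits without 1 array. With the gene mean, which tests fewer rows, 5114 were called between the controls (8101 by probe set) and 5102 between the CsA groups (8162 by probe set). Fits without 1 array gave 5764 to 7922 and 5359 to 10097.

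MT1E 216336_x_at lost its call between the controls without a filter (adjusted p = 0.0989), with array weights (0.0544) and without both 48 h replicate 1 arrays (0.102). With the replicate block, MT1E 212859_x_at passed between the controls (adjusted p = 0.0345), and both MT1E probe sets lost their calls between the CsA groups (adjusted p = 0.0972 and 0.104), where the numbers do not pair the arrays. The block changed no other call of a metallothionein probe set.

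Changes of sign were seen only in values that had not passed. At 12 h MT1X 208581_x_at was -0.0031 with centred arrays and MT1X -0.056 with the gene mean, and MT1E was 0.011 with the gene mean. At 48 h array weights gave -0.042 for MT1X 204326_x_at and -0.032 for MT1X 208581_x_at, and centred arrays gave 0.031 for MT1H. The gene mean gave 0.041 for MT1F between the controls, and array weights gave -0.038 for MT1X 208581_x_at in the difference. Fits without 1 array at 12 h ranged from -0.22 to 0.016 for MT1X 204326_x_at, -0.10 to 0.16 for MT1X 208581_x_at, -0.11 to 0.16 for MT1G, -0.092 to 0.25 for MT1H, -0.069 to 0.19 for MT2A, -0.10 to 0.21 for MT1E 212859_x_at, -0.15 to 0.17 for MT1E 216336_x_at, -0.24 to 0.15 for MT1F 213629_x_at and -0.15 to 0.16 for MT1F 217165_x_at. At 48 h they ranged from -0.18 to 0.24 for MT1X 204326_x_at, -0.042 to 0.11 for MT1X 208581_x_at and -0.053 to 0.017 for MT1H. In the difference they ranged from -0.066 to 0.35 for MT1X 204326_x_at, -0.11 to 0.16 for MT1X 208581_x_at, -0.078 to 0.19 for MT1G, -0.26 to 0.085 for MT1H, -0.076 to 0.18 for MT2A and -0.27 to 0.049 for MT1E 216336_x_at.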
